A study of Mus musculus with 3 samples.

Results

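The retinoblastoma pocket proteins and their E2F partners were followed through the tumors of Phf8-KO and control TRAMP mice. The 10 genes were chosen by name: the pocket protein genes Rb1, Rbl1 and Rbl2, the activator genes E2f1, E2f2 and E2f3, the repressor gene E2f4, the atypical repressor genes E2f7 and E2f8, and Tfdp1, which encodes the DP partner of the E2Fs. All 10 were found among the 46095 gene symbols of the count table, and all 10 passed the filter on low counts that left 18216 genes for testing.

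Pocket proteins hold E2F factors on promoters in a repressed state in resting cells. Cyclin-dependent kinases phosphorylate the pocket proteins late in G1, the E2F-DP dimers are released, and genes for DNA synthesis are switched on. The T antigen of SV40, which drives the tumors of TRAMP mice, binds all pocket proteins and frees E2F from them, so that the brake is lost at the protein level while the Rb1 gene is intact. E2f7 and E2f8 bind DNA without a DP partner or a pocket protein, and repress E2F targets late in the cell cycle.

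The comparison was of 2 pools of Phf8-KO tumors with 1 pool of control tumors. The Phf8-KO1 and Phf8-KO2 libraries are labeled as knockouts of PHF8, a histone demethylase, and the TRAMP library as PHF8 wild-type. Mice of both groups are of the TRAMP strain and carry its transgene, in which a probasin promoter drives the viral oncoprotein in prostate epithelium, and tumor tissue of the prostate was taken at 37 weeks of age. Each library is RNA pooled from 3 mice, so it shows the mean of those animals and not the spread between them. The lesions in each pool, the deleted stretch of Phf8 and any sharing of mice by the Phf8-KO pools are not given in the sources used here. Phf8 was at 15.0 and 15.9 CPM (counts per 1000000 of a TMM-scaled library size) in the Phf8-KO pools, against 19.4 CPM in TRAMP. With the deleted part unknown, these counts are no test of the genotype.

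The libraries held 26747443 to 31876182 counts, at which 3 counts correspond to 0.0905 to 0.113 CPM. All 8 luminal prostate markers examined had counts in each library. Across all genes, edgeR's quasi-likelihood test called 0 higher and 7 lower in Phf8-KO, where a call needed more than a 2-fold difference and an adjusted p under 0.05. The spread in this test comes from the 2 Phf8-KO pools with 1 residual degree of freedom. TRAMP has no second pool and is taken to vary as they do. The test also pulls the spread of each gene toward a trend over all genes, so single-gene p-values do not rest on that gene alone. An exact permutation test of a single gene cannot go below p = 0.333 with 1 pool against 2. Since the sources do not say that the Phf8-KO pools hold separate mice, p-values measure only the spread between these libraries, which may be technical.

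Most transcripts of the E2F system lay higher in the Phf8-KO pools, and those of the atypical repressors stood farthest from TRAMP. Of the 10 genes, 9 lay above TRAMP in both Phf8-KO pools and 1, Rbl2, lay below it in both. Among all genes tested, 40.8% lay above and 42.8% below in both pools. By edgeR's quasi-likelihood test with adjusted p, 0 of the 10 were called (0 higher, against a background of 0% of genes, and 0 lower, against 0.0384%). At an unadjusted p under 0.05 in that test, 6 were higher and 0 lower (Rbl1, E2f1, E2f2, E2f4, E2f7 and E2f8), where 14.9% of all genes were higher and 12.2% lower. DESeq2 called 3 higher, E2f1, E2f7 and E2f8, and 0 lower, where it called 9.42% of genes higher and 4.59% lower. The fitted fold change was over 2 for 4 genes (E2f1, E2f2, E2f7 and E2f8) and under 0.5 for 0, where 17.5% of all genes were over 2-fold higher and 16.1% over 2-fold lower. The median log2 fold change of the 10 genes was 0.86, beside 0.01 over all genes tested. In bulk tumor RNA, fewer cells that use a gene and less of its RNA per cell cannot be told apart.

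**Figure D1:**
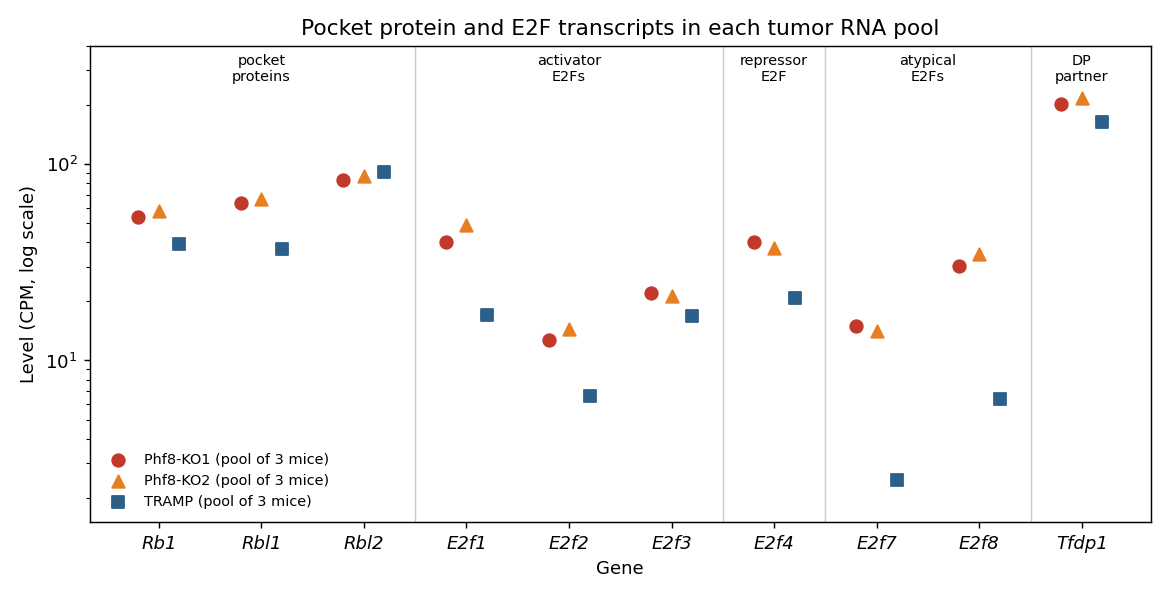
Level of the 10 genes in each library, in CPM on a log axis, with circles for Phf8-KO1, triangles for Phf8-KO2 and squares for TRAMP, each a pool of 3 mice. The Phf8-KO symbols lie close together for every gene, and TRAMP lies below them for all genes but Rbl2, farthest for E2f7 (15.0 and 14.1 CPM in Phf8-KO, 2.46 CPM in TRAMP).

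The Phf8-KO pools resembled each other in these genes. The median absolute log2 ratio between Phf8-KO1 and Phf8-KO2 was 0.09 over the 10 genes, beside 0.31 over all genes tested. Against TRAMP the median absolute log2 ratio of the 10 genes was 0.86 for Phf8-KO1 and 0.85 for Phf8-KO2, beside 0.64 and 0.72 over all genes tested. Genes with few counts are among all genes tested and their ratios carry more counting error, so these medians are not matched for level. Between the Phf8-KO pools, the 95% counting interval of the ratio left out 1 for 3 genes. These are E2f1 (ratio of Phf8-KO1 to Phf8-KO2 0.821, interval 0.759 to 0.887), E2f8 (0.867, 0.792 to 0.95) and Tfdp1 (0.935, 0.903 to 0.969). Counting intervals, here and below, cover counting error only and not the spread between animals.

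Among the pocket proteins, Rb1 and Rbl1 lay higher in both Phf8-KO pools and Rbl2 did not. Rb1, the retinoblastoma tumor suppressor gene, lies on the minus strand of GRCm38 at chr14:73192858-73325951 and has up to 27 exons. Rb1 had 54.1 and 57.8 CPM in Phf8-KO, against 39.4 CPM in TRAMP. The groups did not overlap, and the log2 fold change was 0.51 (standard error, SE, 0.19; adjusted p = 0.20 in edgeR's quasi-likelihood test). Exons of Rb1 share 488 bases with Rcbtb2 and 408 bases with Lpar6 on the other strand, and without a stated strand setting reads there cannot be told apart. Both neighbors ran the other way, with 1456 and 1427 counts of Rcbtb2 in Phf8-KO and 2039 in TRAMP, and 581 and 712 counts of Lpar6 in Phf8-KO and 1172 in TRAMP.

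Rbl1 encodes p107, the pocket protein of cycling cells, itself a known E2F target, and lies at chr2:157145893-157204534 on the minus strand. Rbl1 had 63.2 and 66.2 CPM in Phf8-KO, against 36.9 CPM in TRAMP. Its lower Phf8-KO pool stood 0.78 above TRAMP on the log2 scale while the pools differed by 0.06, and the log2 fold change was 0.81 (SE 0.19, adjusted p = 0.12 in edgeR's quasi-likelihood test). Rbl2 encodes p130, the pocket protein of resting cells, and lies at chr8:91070057-91123844 on the plus strand. Rbl2 had 83.3 and 87.5 CPM in Phf8-KO, against 91.1 CPM in TRAMP. The 3 values were close to each other, at a log2 fold change of -0.09 (SE 0.18, adjusted p = 0.75 in edgeR's quasi-likelihood test). The value of Rbl2 in TRAMP lay above both Phf8-KO pools with TMM scaling but not with library size alone. Exons of Rbl2 share 693 bases with Aktip on the other strand. They share 892 bases with Gm45464, a symbol absent from the count table, so part of the Rbl2 count is uncertain. Aktip lay lower in Phf8-KO, as Rbl2 did, with 2674 and 3665 counts in Phf8-KO and 4527 in TRAMP, and its part in the count of Rbl2 was not tested.

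The promoters of Rbl1 and Rbl2 are shown because these paralogs differed in the comparison. Each runs from 250 bases before the start site to 50 after it (RefSeq, GRCm38.p6). Capitals mark an E2F motif, searched as TTTCCCGC, TTTGGCGC, TTTCGCGC and TTTGCCGC on both strands. Rbl1 covers chr2:157204485-157204784 on the minus strand and Rbl2 covers chr8:91069807-91070106 on the plus strand.
Rbl1: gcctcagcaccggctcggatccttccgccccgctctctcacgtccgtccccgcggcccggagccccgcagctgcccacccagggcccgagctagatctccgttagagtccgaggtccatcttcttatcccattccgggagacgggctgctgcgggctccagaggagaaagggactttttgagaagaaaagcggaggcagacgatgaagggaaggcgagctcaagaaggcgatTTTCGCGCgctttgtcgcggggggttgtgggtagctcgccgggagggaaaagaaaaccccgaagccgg
Rbl2: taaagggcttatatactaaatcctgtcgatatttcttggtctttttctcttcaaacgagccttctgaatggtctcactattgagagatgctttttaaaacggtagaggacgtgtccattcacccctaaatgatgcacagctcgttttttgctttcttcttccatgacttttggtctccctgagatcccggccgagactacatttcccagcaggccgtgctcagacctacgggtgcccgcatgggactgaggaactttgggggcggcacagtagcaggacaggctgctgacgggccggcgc
The Rbl1 window holds 1 motif, TTTCGCGC, whose first base lies 18 bases before the start site. The Rbl2 window holds 0 of these letters, which says nothing on whether a factor binds there.

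The activator genes were unequal. E2f1, a driver of S phase entry and of its own promoter, lies at chr2:154559400-154569892 on the minus strand and has 7 exons. E2f1 had 40.3 and 49.1 CPM in Phf8-KO, against 17.1 CPM in TRAMP. Both Phf8-KO pools were over 2-fold above TRAMP, although they differed from each other more than for any other of the 10 genes. The log2 fold change was 1.39 (SE 0.24, adjusted p = 0.10 in edgeR's quasi-likelihood test). Scaled counts of E2f1 in Phf8-KO were 2.64 times those in TRAMP (95% counting interval 2.40 to 2.91). DESeq2 gave E2f1 an adjusted p of 0.00267, and over 8 alternative fits across all genes this adjusted p ran up to 0.107.

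E2f2 (chr4:136172274-136196057, plus strand) acts with E2f1 and E2f3 in S phase entry. E2f2 had 12.6 and 14.5 CPM in Phf8-KO, against 6.58 CPM in TRAMP. Its log2 fold change was 1.04 (SE 0.34, adjusted p = 0.17 in edgeR's quasi-likelihood test). E2f3 (chr13:29906575-29986064, minus strand) gives rise to the E2F3a and E2F3b forms, which a count per gene cannot separate. E2f3 had 22.0 and 21.3 CPM in Phf8-KO, against 16.8 CPM in TRAMP. This was the smallest difference of the activators, at a log2 fold change of 0.37 (SE 0.23, adjusted p = 0.36 in edgeR's quasi-likelihood test).

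E2f4 encodes an E2F that brings p107 and p130 to promoters, and lies at chr8:105297663-105305370 on the plus strand. E2f4 had 40.0 and 37.5 CPM in Phf8-KO, against 20.7 CPM in TRAMP. Its log2 fold change of 0.90 (SE 0.20, adjusted p = 0.11 in edgeR's quasi-likelihood test) was near that of Rbl1. Without a filter on low counts the adjusted p of E2f4 was 0.048 at a fold change under 2, and over the 8 alternatives the highest was 0.126. Tfdp1, at chr8:13338725-13378448 on the plus strand, encodes DP1, which E2f1 to E2f4 need to bind DNA. Tfdp1 had 202 and 217 CPM in Phf8-KO, against 164 CPM in TRAMP. Its log2 fold change was 0.36 (SE 0.20, adjusted p = 0.32 in edgeR's quasi-likelihood test), close to that of E2f3.

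The atypical repressors E2f7 and E2f8 stood farthest from TRAMP. E2f7 (chr10:110745439-110787384, plus strand, up to 13 exons) had 15.0 and 14.1 CPM in Phf8-KO, against 2.46 CPM in TRAMP. This rests on 400 and 468 counts in Phf8-KO and 71 counts in TRAMP, a ratio of 5.91 after scaling (95% counting interval 4.64 to 7.64). The log2 distance of the nearer Phf8-KO pool to TRAMP was 28.5 times the distance between the pools. That multiple is uncertain, since the ratio of Phf8-KO1 to Phf8-KO2 was 1.06 with a 95% counting interval of 0.928 to 1.22. For E2f8 the multiple was 11. E2f7 had a log2 fold change of 2.57 (SE 0.38, adjusted p = 0.10 in edgeR's quasi-likelihood test).

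E2f8 (chr7:48866429-48882073, minus strand, up to 13 exons) had 30.4 and 35.0 CPM in Phf8-KO, against 6.33 CPM in TRAMP. Its counts were 809 and 1160 in Phf8-KO and 183 in TRAMP, a ratio of 5.20 (95% counting interval 4.47 to 6.08). E2f8 had the smallest unadjusted p of the 10 genes, with a log2 fold change of 2.37 (SE 0.26, adjusted p = 0.10 in edgeR's quasi-likelihood test). DESeq2 gave adjusted p-values of 1.99e-05 for E2f7 and 2.64e-07 for E2f8, and for both genes the highest over 8 alternative fits was 0.106. Without a filter on low counts, edgeR's quasi-likelihood test called E2f1, E2f7 and E2f8. Exons of E2f7 share 86 bases with 1700020G17Rik, which had 0 counts in all libraries. Exons of E2f8 share 610 bases with Gm2788, a symbol absent from the count table.

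**Figure D2:**
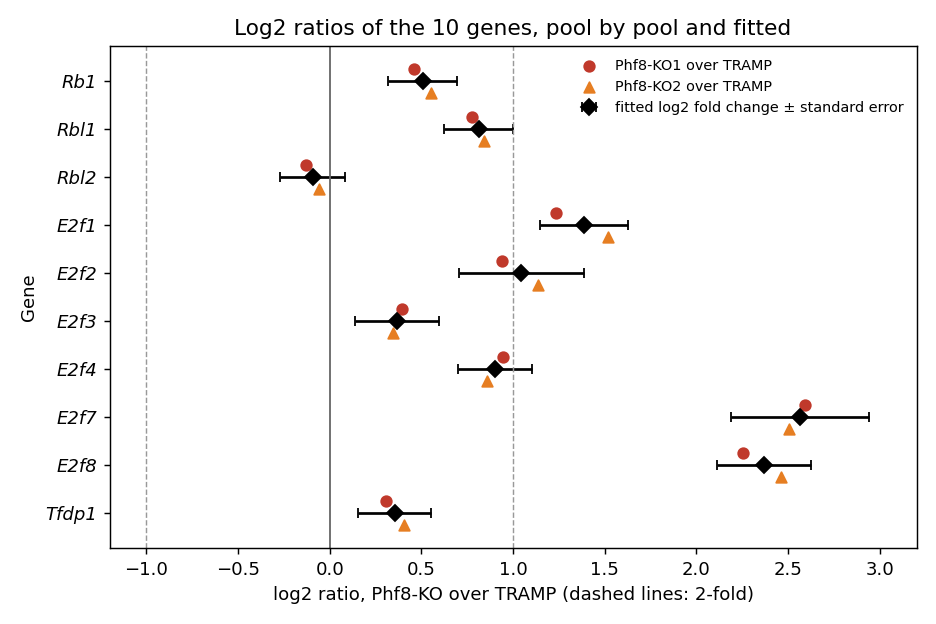
Log2 ratios of Phf8-KO over TRAMP for the 10 genes, with black diamonds for the fitted log2 fold change and bars for its standard error, circles for Phf8-KO1 over TRAMP and triangles for Phf8-KO2 over TRAMP (prior count of 1). E2f7 and E2f8 lie at 2.57 and 2.37, E2f1 and E2f2 at 1.39 and 1.04, and Rbl2 alone lies below 0, at -0.09.

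The promoters of E2f7 and E2f8 are shown because these genes differed most and did so by similar amounts (RefSeq, GRCm38.p6, capitals as above). E2f7 covers chr10:110745189-110745488 on the plus strand and E2f8 covers chr7:48881547-48881846 on the minus strand.
E2f7: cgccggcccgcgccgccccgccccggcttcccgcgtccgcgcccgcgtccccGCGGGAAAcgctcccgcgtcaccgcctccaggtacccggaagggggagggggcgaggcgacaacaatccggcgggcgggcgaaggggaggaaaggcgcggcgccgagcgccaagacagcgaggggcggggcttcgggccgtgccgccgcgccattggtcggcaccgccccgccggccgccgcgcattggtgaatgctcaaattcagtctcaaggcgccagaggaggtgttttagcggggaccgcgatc
E2f8: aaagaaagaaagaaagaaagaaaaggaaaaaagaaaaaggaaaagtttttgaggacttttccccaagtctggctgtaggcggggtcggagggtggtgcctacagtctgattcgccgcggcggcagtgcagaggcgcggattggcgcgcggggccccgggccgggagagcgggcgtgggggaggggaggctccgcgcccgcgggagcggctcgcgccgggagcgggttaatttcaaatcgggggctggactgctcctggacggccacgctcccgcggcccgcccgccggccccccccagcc
The E2f7 window holds 1 motif, TTTCCCGC read on the other strand, whose first base lies 198 bases before the start site, and the E2f8 window holds 0. Promoters were found for 8 of the 10 genes, and 5 of these genes hold at least 1 motif: Rbl1, E2f2, E2f3, E2f7 and Tfdp1. Of 27025 genes with such windows of 300 bases, 704 (2.60%) hold one, and of all 32851 windows 2.26% do. The motif is thus held by genes with small differences (E2f3, Tfdp1) and by E2f7, while the windows of E2f1, E2f8 and Rbl2 hold 0. The E2f1 window begins from a start site 466 bases inside the gene model of GENCODE, so it need not cover the main promoter. The E2f8 window begins from the GENCODE start site but lies inside the RefSeq span of the gene, which reaches chr7:48882073. It too need not cover the main promoter, so its lack of a motif is no firm contrast with E2f7.

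Shares within a library need no scaling between libraries, and they differed too. E2f7 and E2f8 together took 37.7% (95% exact binomial interval 36.0 to 39.4) of the counts of activator and atypical E2Fs in Phf8-KO1 and 36.7% (35.2 to 38.1) in Phf8-KO2, against 17.8% (15.9 to 19.9) in TRAMP. Their own mix was alike, with E2f8 at 66.9% and 71.3% of the atypical counts in Phf8-KO and 72.0% in TRAMP. E2f1 took 53.8% (51.5 to 56.0) and 57.8% (56.0 to 59.7) of the activator counts in Phf8-KO, against 42.3% (39.4 to 45.1) in TRAMP. The balance of E2f4 to the activators did not separate the groups: E2f4 took 34.8% and 30.7% of their joint counts in Phf8-KO and 33.9% in TRAMP.

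Among the pocket proteins the largest share was that of Rbl2 in every library. Rbl2 took 41.5% (40.2 to 42.9) and 41.4% (40.2 to 42.5) of pocket protein counts in Phf8-KO, against 54.4% (53.0 to 55.9) in TRAMP. Rbl1 took 31.5% (30.3 to 32.8) and 31.3% (30.2 to 32.4) in Phf8-KO, against 22.0% (20.9 to 23.2) in TRAMP. Rb1 took 26.96% (25.8 to 28.2) and 27.3% (26.3 to 28.4) in Phf8-KO, against 23.5% (22.3 to 24.7) in TRAMP. The Phf8-KO pools held these 3 shares within 1 percentage point of each other. The shares are of counts, which also follow the length of each transcript.

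**Figure D3:**
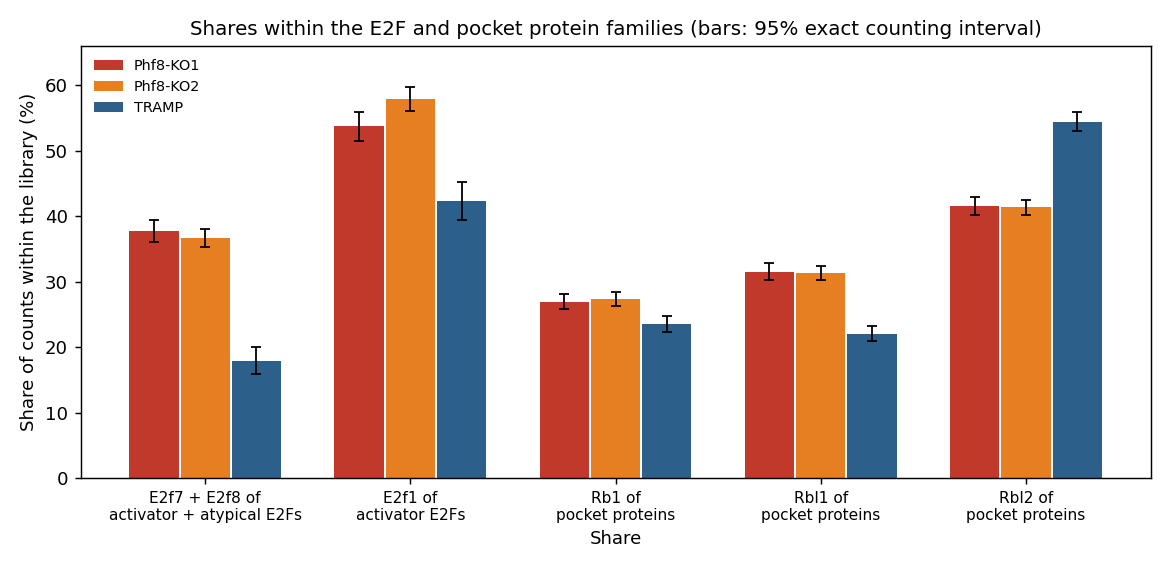
Share of counts (percent of the counts of the named family within a library) for Phf8-KO1, Phf8-KO2 and TRAMP, with 95% exact binomial intervals that cover counting error only. E2f7 and E2f8 take 37.7% and 36.7% in Phf8-KO and 17.8% in TRAMP, while Rbl2 takes 41.5% and 41.4% in Phf8-KO and 54.4% in TRAMP.

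Set against Mki67, which encodes the proliferation marker Ki-67, some of the 10 genes still lay higher in Phf8-KO and others did not. For each 100 counts of Mki67 there were 7.87 and 9.55 counts of E2f8 in Phf8-KO, against 2.88 in TRAMP. The ratio was 3.89 and 3.85 for E2f7 in Phf8-KO, against 1.12 in TRAMP, and 10.4 and 13.4 for E2f1 in Phf8-KO, against 7.77 in TRAMP. These 3 genes, and by smaller amounts E2f2 and E2f4, had more counts per Mki67 count in both Phf8-KO pools. E2f3, Rb1, Rbl2 and Tfdp1 did not: Tfdp1 had 52.5 and 59.0 counts for each 100 of Mki67 in Phf8-KO, against 74.4 in TRAMP, and Rb1 had 14.0 and 15.8, against 17.9 in TRAMP. For Rbl1 the groups overlapped, at 16.4 and 18.0 in Phf8-KO and 16.7 in TRAMP. The division depends on the marker: for each 100 counts of Top2a, the mitotic topoisomerase gene, Rb1 had 26.9 and 34.9 counts in Phf8-KO, against 24.1 in TRAMP, and Rbl2 alone was lower in both pools, at 41.5 and 52.8, against 55.8 in TRAMP. E2f7 and E2f8 lay far above TRAMP by both markers, with 15.1 and 21.1 counts of E2f8 for each 100 of Top2a in Phf8-KO, against 3.88 in TRAMP. Mki67 itself was at 386 and 367 CPM in Phf8-KO, against 220.1 CPM in TRAMP (log2 fold change 0.77, standard error 0.23, adjusted p = 0.15 in edgeR's quasi-likelihood test).

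To order the genes by level, CPM was divided by the length in kb of all annotated exons (GENCODE M21, GRCm38). Tfdp1 was the most abundant per kb, at 57.1 ± 2.70 CPM per kb in Phf8-KO (SD, n = 2) and 44.6 CPM per kb in TRAMP. In Phf8-KO, E2f4 (15.8 ± 0.700 CPM per kb) and E2f1 (14.2 ± 1.97 CPM per kb) followed, and the pools of these neighbors overlapped. Rbl2 (11.3 ± 0.394 CPM per kb) and Rbl1 (10.8 ± 0.344 CPM per kb) overlapped as well, ahead of Rb1 at 9.30 ± 0.437 CPM per kb. The lower ranks in Phf8-KO were those of E2f8 (6.01 ± 0.604 CPM per kb), E2f3 (3.99 ± 0.0942), E2f2 (2.78 ± 0.266) and E2f7 (1.62 ± 0.0697), with no overlap between neighbors. In TRAMP, Rbl2 (12.1 CPM per kb) came next after Tfdp1, E2f1 (5.42 CPM per kb) ranked 6 of 10 where it ranked 3 in Phf8-KO, and E2f8 (1.16 CPM per kb) ranked 9 where it ranked 7. E2f7 was the least abundant per kb in both groups, at 0.273 CPM per kb in TRAMP.

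Genes around the 10 were read from 8 lists of 84 genes, all of which were tested, and most were at a higher level in Phf8-KO. Both Phf8-KO pools were above TRAMP for 76 of the 84 and below it for 4, where 40.8% of all genes tested were above and 42.8% below. By edgeR's quasi-likelihood test 0 were higher and 0 lower, while its unadjusted p was under 0.05 for 48 on the higher side (57.1%, beside 14.9% of all genes) and 2 on the lower. DESeq2 called 30 higher and 0 lower, where it called 9.42% of all genes higher and 4.59% lower. The median log2 fold change over the 84 genes was 0.77, beside 0.01 for all genes tested. The lists share the cell cycle as a subject, so their genes are not independent of each other.

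The remaining family members differed little. E2f5, a repressor, had 26.6 and 18.5 CPM in Phf8-KO and 25.1 CPM in TRAMP, so the groups overlapped, and its log2 fold change of -0.15 turned to 0.09 without Phf8-KO2. E2f6, which represses without a pocket protein, had 32.1 and 29.6 CPM in Phf8-KO and 28.4 CPM in TRAMP, a log2 fold change of 0.12 that turned to -0.03 with upper quartile scaling. Tfdp2, the other DP gene, had 70.6 and 78.2 CPM in Phf8-KO and 62.6 CPM in TRAMP. None of the 3 had an unadjusted p under 0.05 in edgeR's quasi-likelihood test, and DESeq2 called 0.

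Upstream of the pocket proteins, genes for inhibitors of cyclin-dependent kinases lay higher in Phf8-KO. All 7 inhibitor genes were above TRAMP in both pools, with 6 higher at an unadjusted p under 0.05, 0 by edgeR's adjusted p and 3 by DESeq2, at a median log2 fold change of 1.32. Cdkn2a, the locus of p16 and p19Arf, had 198 and 222 CPM in Phf8-KO, against 84.3 CPM in TRAMP. Cdkn1a, which encodes p21, had 29.7 and 41.8 CPM in Phf8-KO, against 9.62 CPM in TRAMP, and Cdkn1c, which encodes p57, had 21.8 and 35.2 CPM in Phf8-KO, against 8.44 CPM in TRAMP. Each was more than 2-fold higher in both pools, though the pools differed more for Cdkn1a and Cdkn1c than for any of the 10 genes. Of 10 cyclin and kinase genes, 8 were above and 1 below TRAMP in both pools, with 2 on the higher and 1 on the lower side at an unadjusted p under 0.05, 0 called by edgeR's adjusted p and 2 called higher by DESeq2. For the cyclins and kinases, the shares at an unadjusted p under 0.05 are near those of all genes, 14.9% higher and 12.2% lower. Of all genes tested, 40.8% lay above and 42.8% below TRAMP in both pools, and DESeq2 called 9.42% higher.

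Ccna2, the S phase cyclin, had 111 and 86.7 CPM in Phf8-KO, against 36.5 CPM in TRAMP, and Cdk2, its kinase, had 80.2 and 100.7 CPM in Phf8-KO, against 43.7 CPM in TRAMP. The cyclins of G1 were divided. Ccnd2 was the 1 below TRAMP, at 6.83 and 9.27 CPM in Phf8-KO and 16.6 CPM in TRAMP, while Ccnd1 had 21.4 and 19.7 CPM in Phf8-KO and 12.7 CPM in TRAMP. Ccne1 had 19.0 and 16.2 CPM in Phf8-KO, against 12.0 CPM in TRAMP, and Ccne2 had 34.3 and 39.7 CPM in Phf8-KO, against 26.4 CPM in TRAMP. None of these genes had an adjusted p under 0.10 in edgeR's quasi-likelihood test.

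Genes that E2F factors are known to switch on in late G1 and S phase were all on the higher side. Of 25 such G1/S genes, 25 lay above TRAMP in both pools, with 15 higher at an unadjusted p under 0.05, 0 by edgeR's adjusted p and 9 by DESeq2 (median log2 fold change 0.70). Among all genes tested, 40.8% lay above and 42.8% below in both pools. At that unadjusted p 14.9% were higher, and DESeq2 called 9.42% higher. Cdt1, which loads the MCM helicase, had 71.8 and 79.4 CPM in Phf8-KO, against 15.3 CPM in TRAMP, a log2 fold change of 2.31. Uhrf1, which guides maintenance DNA methylation, had 120 and 122 CPM in Phf8-KO, against 31.9 CPM in TRAMP, and Lig1, the replicative DNA ligase, had 177 and 187 CPM in Phf8-KO, against 50.8 CPM in TRAMP. All 6 MCM genes, which encode the replicative helicase, lay above TRAMP in both pools, at log2 fold changes of 0.74 to 1.17 (median 1.09, 6 higher at an unadjusted p under 0.05, 0 by edgeR's adjusted p, 4 by DESeq2). Mcm5 had 186 and 175 CPM in Phf8-KO, against 82.4 CPM in TRAMP, Mcm3 had 198 and 215 CPM, against 97.5 CPM in TRAMP, and Mcm2 had 246 and 263 CPM, against 119 CPM in TRAMP.

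Genes of G2 and mitosis, which the MuvB complex controls with its partners, were also on the higher side. All 17 lay above TRAMP in both pools, with 15 higher at an unadjusted p under 0.05, 0 by edgeR's adjusted p and 8 by DESeq2 (median log2 fold change 0.96). Among all genes tested, 40.8% lay above and 42.8% below in both pools. At that unadjusted p 14.9% were higher, and DESeq2 called 9.42% higher. Plk1, a mitotic kinase, had 26.1 and 21.1 CPM in Phf8-KO, against 5.43 CPM in TRAMP. Ube2c, which marks mitotic cyclins for destruction, had 38.4 and 29.4 CPM in Phf8-KO, against 9.07 CPM in TRAMP, and Aurkb, another mitotic kinase, had 27.2 and 21.5 CPM, against 7.58 CPM in TRAMP. Within the MuvB list the transcription factor genes stood apart from the core. Foxm1 had 35.4 and 34.2 CPM in Phf8-KO, against 6.96 CPM in TRAMP (log2 fold change 2.32, standard error 0.23, adjusted p = 0.10 in edgeR's quasi-likelihood test), and Mybl2 had 6.87 and 8.42 CPM, against 1.83 CPM in TRAMP. The core genes were mixed. Lin54 had 32.5 and 33.0 CPM in Phf8-KO, against 24.4 CPM in TRAMP. Lin9 ran the other way, at 32.1 and 39.8 CPM in Phf8-KO and 49.5 CPM in TRAMP, and for Lin52 the groups overlapped. Of the 8 genes of this list, 6 were above TRAMP and 1, Lin9, was below it in both pools. At an unadjusted p under 0.05, 2 were higher, with 0 by edgeR's adjusted p and 2 by DESeq2. Beside the shares of all genes above, 2 of 8 genes stand out little.

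Cofactors of the pocket proteins went in both directions, with 5 of 8 above and 2 below TRAMP in both pools. Among all genes tested, 40.8% lay above and 42.8% below. Fzr1, an activator of the anaphase-promoting complex that pRB binds, had 37.7 and 45.3 CPM in Phf8-KO, against 16.02 CPM in TRAMP. Suv39h1, a methyltransferase for histone H3 lysine 9, had 36.0 and 34.5 CPM in Phf8-KO, against 17.2 CPM in TRAMP. Sin3b, a corepressor scaffold, ran the other way, at 92.5 and 100.9 CPM in Phf8-KO and 153 CPM in TRAMP. At an unadjusted p under 0.05, 2 of the 8 were higher and 1 lower, 0 passed edgeR's adjusted p, and DESeq2 called 2 higher. At that unadjusted p 14.9% of all genes were higher and 12.2% lower, and DESeq2 called 9.42% higher. For 8 genes, these counts are near the background.

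**Figure D4:**
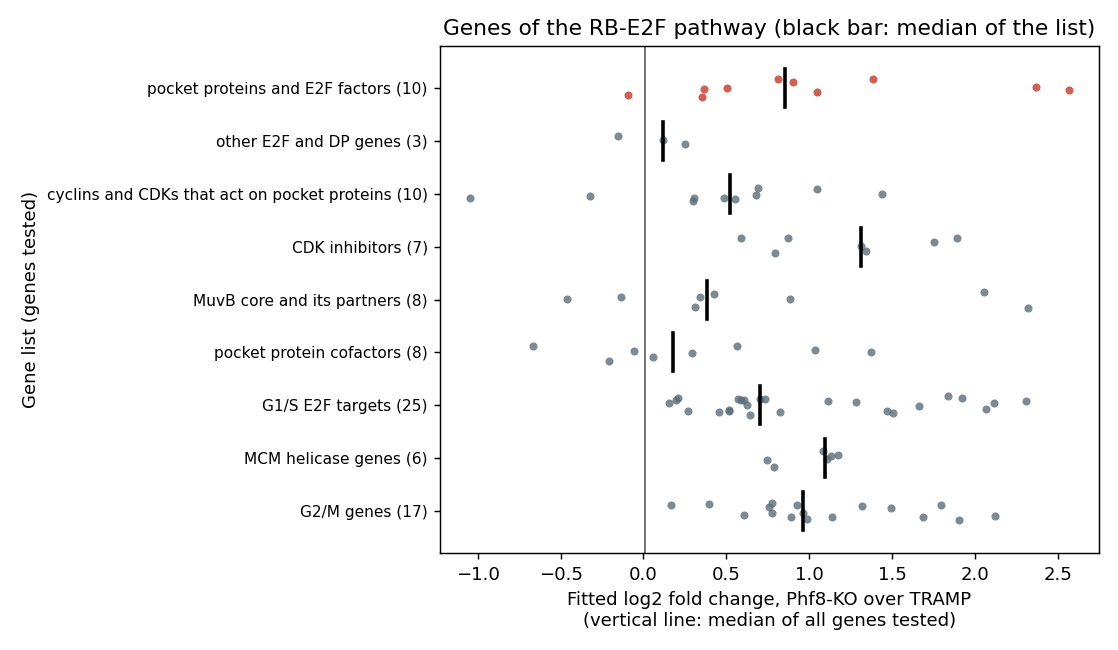
Fitted log2 fold change, Phf8-KO over TRAMP, of every tested gene of the pocket protein and E2F set (red) and of 8 lists of the pathway (gray), with a black bar at each median and a vertical line at the median of all genes tested. The E2F set has its median at 0.86, the CDK inhibitors at 1.32, the MCM genes at 1.09 and the other E2F and DP genes at 0.12.

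Likeness of pattern was measured as the Euclidean distance between the log2 ratios of Phf8-KO1 and of Phf8-KO2 to TRAMP, over 84 genes of the lists and 3 libraries. The genes nearest to Rb1 were Slbp (distance 0.052), Ccne2 (0.090) and Ezh2 (0.107). The genes nearest to E2f1 were Fzr1 (0.022), Cdkn2a (0.126) and Rrm2 (0.147). With 3 libraries, many genes can lie this close.

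Markers of several other cell types differed between the groups as well. For scale, 42.8% of all genes tested lay below TRAMP in both pools and 40.8% above. Neuroendocrine markers summed to 43.4 and 25.0 CPM in Phf8-KO, against 98.6 CPM in TRAMP, with 6 of 8 below TRAMP in both pools and 0 of them at 0 counts. Ncam1, at 29.4 and 13.9 CPM in Phf8-KO and 15.7 CPM in TRAMP, overlapped between the groups. The other 7 summed to 14.0 and 11.1 CPM in Phf8-KO, against 82.9 CPM in TRAMP. Skeletal muscle markers summed to 74.4 and 17.3 CPM in Phf8-KO, against 1731 CPM in TRAMP, with 10 of 10 below and Myh2 at 0 counts in both Phf8-KO pools. Adipocyte markers summed to 43.3 and 42.2 CPM in Phf8-KO, against 779 CPM in TRAMP (9 of 9 below, Lep at 0 counts in Phf8-KO1 and Cidec and Retn at 0 in Phf8-KO2). Macrophage markers summed to 367 and 148 CPM in Phf8-KO, against 809 CPM in TRAMP, with 7 of 7 below. Seminal vesicle markers summed to 1453 and 2144 CPM in Phf8-KO, against 118 CPM in TRAMP, with 8 of 8 above. Luminal markers summed to 7276 and 3205 CPM in Phf8-KO, against 7865 CPM in TRAMP. Of the 8, 3 were above and 4 below in both pools, near the shares of all genes. Msmb, a secreted protein gene, sets these sums, at 4326 and 189.7 CPM in Phf8-KO and 4805 CPM in TRAMP, and the other 7 luminal markers summed to 2950 and 3015 CPM in Phf8-KO and 3060 CPM in TRAMP. Smooth muscle markers overlapped between the groups, at 5103 and 384 CPM in Phf8-KO and 685 CPM in TRAMP. Fibroblast and matrix sums overlapped too, at 2198 and 744 CPM in Phf8-KO and 1775 CPM in TRAMP. Urothelial sums were alike, at 879 and 905 CPM in Phf8-KO and 883 CPM in TRAMP. Of 5 urothelial markers, 3 were below and 1 above in both pools. Basal, endothelial, T cell and B cell sums were lower in both Phf8-KO pools. Without its most abundant marker the basal sum overlapped, and of 6 endothelial markers 2 were above and 3 below. The part of these cell types in the levels of the E2F and pocket protein genes was not tested.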

How the data were processed

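RNA-seq of pooled prostate tumor RNA was taken as deposited. HISAT2 was used by the authors to map filtered reads to GRCm38, and HTSeq to assign them to genes. What they deposited are raw counts without normalization. Tool versions, annotation release and strand setting are not given in the sources used here. Totals were 26747443 for Phf8-KO1, 31876182 for Phf8-KO2 and 29954020 for TRAMP.

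Counts were fitted with edgeR 4.0.16 in R 4.3.3 (quasi-likelihood test at its default setting, TMM scaling, filterByExpr by group, Benjamini-Hochberg adjustment over 18216 genes). Alternatives were DESeq2 1.42.0, the tool of the study, limma-voom (limma 3.58.1), other scalings, other filters and omission of each Phf8-KO pool. DESeq2 gave an adjusted p for 16269 of 25757 genes, and its shares are of those genes. Levels are CPM on TMM library sizes. The standard error is the log2 fold change divided by the square root of F. Log2 ratios between single libraries used a prior count of 1. Intervals (95%) are exact, binomial or conditional on the sum of 2 counts (scipy 1.17.1). The fits and intervals were tested on simulated data.

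The 10 genes, the gene lists and the tests were chosen with earlier results of these data known. Named from the lists are up to 3 genes with the smallest p in each, Foxm1, Mybl2, Mki67, Ccnd1, Ccne1, Ccne2, Cdkn1a and Cdkn2a, and the 3 genes nearest in pattern to Rb1 and E2f1. Outside this rule, Top2a, Cdc45, Gins1, Lin9 and the markers Msmb and Ncam1 were chosen after their values were seen. Cdk6, Lin52, Kdm5a and Rbbp7 are named because their sign turned. Gene positions are those of RefSeq, exon numbers and lengths those of GENCODE M21, both on GRCm38.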

Additional observations from a re-analysis of the deposited data

How the results depend on the processing

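All 10 genes kept their direction under the 10 alternatives run (RLE, upper quartile and library size scaling, no filter, a minimum mean CPM of 1, limma-voom, DESeq2, the other quasi-likelihood setting and omission of either Phf8-KO pool, which leaves 1 library against 1 and no test). Log2 fold changes ran from 2.42 to 2.64 for E2f7, 2.22 to 2.46 for E2f8, 1.24 to 1.52 for E2f1, 0.36 to 0.59 for Rb1 and -0.24 to -0.015 for Rbl2. Upper quartile scaling moved the median of all genes by -0.15. Called members numbered 3 without a filter and 3 with DESeq2, in place of 0, and called pathway genes 29 and 30, in place of 0. At an unadjusted p under 0.05 in each fit, upper quartile scaling gave 5 members and 35 pathway genes higher, in place of 6 and 48. The other fits gave 6 members and 44 to 50 pathway genes. Members below TRAMP in both pools numbered 0 with library size alone, in place of 1. Leaving out either Phf8-KO pool gives no counts of calls. Over all genes, in place of 7 lower and 0 higher, library size alone gave 19 and 1, no filter 856 and 1430, DESeq2 747 and 1533, an unadjusted p under 0.05 gave 2225 and 2717, and a minimum mean CPM of 1 and limma-voom gave 0 lower each. The causes were not tested. Pathway genes near 0 turned sign: E2f6 at -0.033 and Rbbp7 at -0.091 with upper quartile scaling, Kdm5a at 0.015 with library size alone, and, without 1 Phf8-KO pool, E2f5 (-0.44 to 0.089), Cdk6 (-1.02 to 0.145), Lin52 (-0.43 to 0.11) and Kdm5a (-0.26 to 0.12). The median of the other E2F and DP genes was -0.033 with upper quartile scaling. No paired analysis was possible because the TRAMP library carries no replicate number and stands alone in its group. Depth limits E2f7 most, with 71 counts in TRAMP.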

Other observations

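Cdc45, which joins the MCM ring and the GINS complex in the replicative helicase, was chosen after its values were seen. It had 7 and 12 counts in Phf8-KO and 2 counts in TRAMP, or 0.263 and 0.362 CPM in Phf8-KO and 0.0692 CPM in TRAMP. Its partner Gins1 had 26.8 and 18.0 CPM in Phf8-KO and 14.4 CPM in TRAMP, and all 6 MCM genes were at 82.4 CPM or more in each library. Per the GENCODE annotation, Cdc45 has up to 20 exons with 3506 bases in all, of which 209 are shared with Ufd1 on the other strand. Its log2 fold change of 2.11 had an SE of 1.40. The reason for the low count was not tested.

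The E2F motif was also counted in the promoters of the pathway lists, as a description without a test. Of genes with a promoter in the RefSeq table, 4 of 5 MCM genes and 9 of 21 G1/S genes held at least 1 of the 4 motifs, against 0 of 15 G2/M genes, beside 704 of 27025 genes in all. The median log2 fold change was 1.09 for the MCM genes, 0.70 for the G1/S genes and 0.96 for the G2/M genes.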
